A study of Saccharomyces cerevisiae with 18 samples.

Results

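Leucine and branched-chain amino acid synthesis was followed through 10 genes of budding yeast: LEU1, LEU4, LEU9, ILV2, ILV3, ILV5, ILV6, BAT1, BAT2 and OAC1. They were chosen by name, as the enzymes and the carrier of the pathway, out of 6159 genes listed in either table of ribosome footprints. All 10 were present in both tables and passed the filter on low counts in every comparison. The large decreases of LEU1 and OAC1 between ncs2Δelp6Δhel2Δ and ncs2Δelp6Δ monosome libraries were known when the list was drawn up, so values of that comparison are described below without a test. Monosome footprints come from single ribosomes on mRNA and disome footprints from ribosomes packed so closely that nuclease cannot cut between neighbours. Monosome libraries numbered 2 for ncs2Δelp6Δhel2Δ, 3 for ncs2Δelp6Δ, 2 for hel2Δ and 3 for wild type, and each strain had 2 disome libraries.

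All strains carried his3Δ1, leu2Δ0 and ura3Δ0 and were grown in rich YPD medium. The triple deletion strain was ncs2Δ::HIS3MX elp6Δ::URA3 hel2Δ::LEU2, the double deletion strain was ncs2Δ::HIS3MX elp6Δ::URA3, and the single deletion strain was hel2Δ::LEU2. The wild type was BY4741, MATa, for which met15Δ0 was listed in addition. NCS2 and ELP6 are needed for the thiol and carboxymethyl groups on the wobble uridine of certain tRNAs, and Hel2 is the ubiquitin ligase that recognizes collided ribosomes. The LEU2 marker encodes a leucine synthesis enzyme that wild type and ncs2Δelp6Δ lack, and it was inserted only together with the loss of HEL2. Loss of HEL2 and gain of LEU2 therefore cannot be told apart in any comparison below. HIS3MX and URA3 were likewise inserted only together with the loss of NCS2 and ELP6. Gain of these markers cannot be told apart from that loss either.

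Branched-chain amino acids are made from pyruvate and threonine in mitochondria, where acetolactate synthase, reductoisomerase and dihydroxyacid dehydratase yield the keto acids of valine and isoleucine. Leucine synthesis branches off from the valine keto acid: isopropylmalate synthase makes alpha-isopropylmalate, which leaves the mitochondrion, is isomerized and then oxidized by the LEU2 enzyme. Alpha-isopropylmalate is also the co-activator of the transcription factor Leu3. LEU1, LEU4, ILV2, ILV5, BAT1 and OAC1 are textbook targets of Leu3, whereas the other 4 genes are not on that list. Gcn4 activates many amino acid synthesis genes, this pathway included.

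Library totals ranged from 2381991 to 4352295 counts in the 4 hel2Δ and triple deletion monosome libraries and from 11702547 to 24884873 in the 6 that retained HEL2, so monosome depth ran with HEL2. Disome totals ranged from 845707 to 2521397. HEL2 had at most 6 counts in any monosome library of its deletion strains, and NCS2 and ELP6 had at most 26 and 3 counts in theirs. LEU2 (YCL018W) had 59 and 102 monosome counts in the triple deletion, 1 in each ncs2Δelp6Δ library, 22 and 25 in hel2Δ, and 1 to 4 in wild type, and at most 1 disome count in any library. The source species of the marker is not given in the sources used here, so these counts may not measure its expression. URA3, the marker at ELP6, had 0 counts in the triple deletion monosome libraries and 1 to 2 in those of ncs2Δelp6Δ. Both strains were listed with it, but its source species is not given either, so these counts may not measure its expression. MET17, the gene also called MET15, had 517 and 894 counts in the triple deletion and at least 2953 in ncs2Δelp6Δ, but 1 in each hel2Δ library and at most 24 in wild type, so strains that lacked NCS2 and ELP6 also differed from the others at this locus, and the 2 differences cannot be told apart. Markers of mating type a summed to between 575 and 1176 normalized CPM in every monosome library, and those of mating type alpha to at most 3.82.

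Levels are given as normalized CPM, that is counts set to a common library size by the trimmed mean of M-values (TMM) over all libraries of a footprint type. Levels are given ± SD and log2 changes ± SE. Scaling by library totals alone would shift the median log2 change of all genes by 0.26 in hel2Δ against wild type and by 0.26 in ncs2Δelp6Δ against wild type in monosomes, and by at most 0.33 in any comparison of either footprint type. Footprint counts rise with mRNA abundance and with ribosomes per mRNA, and these tables do not separate them.

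In wild type, expressed per kilobase of gene so that genes can be set beside each other, ILV5 was the most abundant member at 4205 ± 391 normalized CPM per kb of monosome footprints (SD, n = 3). It encodes the reductoisomerase. LEU1, the isopropylmalate isomerase, followed at 613 ± 32.6 and ILV3, the dihydroxyacid dehydratase, at 520 ± 26.9 normalized CPM per kb. BAT2, BAT1, ILV6 and ILV2 stood between 422 and 358 normalized CPM per kb, and each overlapped its neighbour in this order across libraries. OAC1 and LEU4 also overlapped, at 182 ± 15.9 and 179 ± 9.15 normalized CPM per kb, and LEU9 was lowest at 69.5 ± 7.88. The order differed in the strains without HEL2: OAC1 was the lowest member, at 10.4 ± 1.14 normalized CPM per kb in the triple deletion and 16.4 ± 0.715 in hel2Δ (SD, n = 2 each), and LEU1 stood in eighth place in both.

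To determine whether the pathway differed in cells without HEL2, monosome counts of hel2Δ were compared with wild type. The members and lists were chosen with earlier results of these data known. Among these were the decreases of LEU1 and OAC1 in the other comparison of strains without and with HEL2. The counts and medians here therefore describe the list and are not independent evidence about it. Of the 10 members, 6 were lower in hel2Δ and 0 were higher, at an edgeR adjusted p under 0.05. The same test called 17.2% of 5225 genes lower and 14.7% higher (31.9% in either direction). Every hel2Δ library was below every wild-type library for 7 members and above for 0, as for 29.6% and 30.1% of all genes. The members' median log2 change was −0.60, against 0.03 for all genes tested. Of the 6 Leu3 targets, 5 were lower, with a median of −1.35, and of the other 4 members only ILV3 was lower.

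The largest decreases were found in the leucine branch and its carrier. LEU1 (YGL009C, chromosome VII, 476313 to 478652, sacCer3) had 187 and 185 normalized CPM in hel2Δ, against 1495, 1462 and 1349 in wild type. The hel2Δ libraries were far below every wild-type library, a log2 change of −2.94 ± 0.08 (edgeR adjusted p = 1.49e-13), and LEU1 ranked 14 from the lowest of 5225 genes. OAC1 (YKL120W, chromosome XI, 217344 to 218318) encodes the mitochondrial inner membrane carrier of oxaloacetate and sulfate, which also moves alpha-isopropylmalate. It had 16.5 and 15.5 normalized CPM in hel2Δ, from 44 and 57 counts, against 183, 189 and 159.9 in wild type. Its log2 change of −3.46 ± 0.13 (edgeR adjusted p = 3.73e-12) ranked 9 from the lowest, and the groups were far apart.

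The isopropylmalate synthases, which stand at the entry to the leucine branch, did not follow LEU1. LEU4 (YNL104C, chromosome XIV, 424895 to 426754), the main and leucine-sensitive synthase, had 308 and 306 normalized CPM in hel2Δ, against 329, 352 and 319 in wild type (log2 change −0.11, edgeR adjusted p = 0.294). Its paralog LEU9 (YOR108W, chromosome XV, 523027 to 524841) had 141 and 138 normalized CPM in hel2Δ, against 119, 143 and 117 in wild type, and the groups overlapped (log2 change 0.16, edgeR adjusted p = 0.218). Neither passed the test, although both hel2Δ libraries lay below wild type for LEU4.

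In the common part of the pathway the decreases were graded. ILV5 (YLR355C, chromosome XII, 838066 to 839253) had 2188 and 2248 normalized CPM in hel2Δ, against 5207, 5318 and 4463 in wild type, a log2 change of −1.16 ± 0.08 (edgeR adjusted p = 2.6e-08). ILV3 (YJR016C, chromosome X, 464451 to 466208) had 504.5 and 519 normalized CPM in hel2Δ, against 964, 908 and 870.1 in wild type, a log2 change of −0.82 ± 0.08 (edgeR adjusted p = 6.7e-07). In both genes every hel2Δ library was below every wild-type library. ILV2 (YMR108W, chromosome XIII, 484084 to 486147), the catalytic subunit of acetolactate synthase, fell less, with 552 and 571 normalized CPM in hel2Δ, against 736, 756 and 722 in wild type (log2 change −0.38 ± 0.07, edgeR adjusted p = 0.000649). ILV6 (YCL009C, chromosome III, 104619 to 105548), the regulatory subunit of the same enzyme, stayed between 345 and 350.4 normalized CPM in hel2Δ, inside the wild-type range of 312 to 358 (log2 change 0.07, edgeR adjusted p = 0.515).

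The branched-chain aminotransferases, which exchange the amino group in the last step, diverged. BAT1 (YHR208W, chromosome VIII, 517532 to 518713), the mitochondrial enzyme, had 173 and 158 normalized CPM in hel2Δ, against 454, 496 and 510.2 in wild type. That is a log2 change of −1.55 ± 0.09 (edgeR adjusted p = 1.43e-09) with no overlap between strains. BAT2 (YJR148W, chromosome X, 705744 to 706874), the cytosolic enzyme, had 488 and 518 normalized CPM in hel2Δ, against 479, 436 and 516 in wild type, and did not pass the test (log2 change 0.09, edgeR adjusted p = 0.451). LEU4 with LEU9 and BAT1 with BAT2 are paralogous pairs, and the authors counted uniquely mapped footprints, so stretches identical within a pair contribute to neither gene. All 6 decreases were called under every alternative setting tried, including monosome libraries thinned to equal depth, where 6 members were called.

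**Figure D1:**
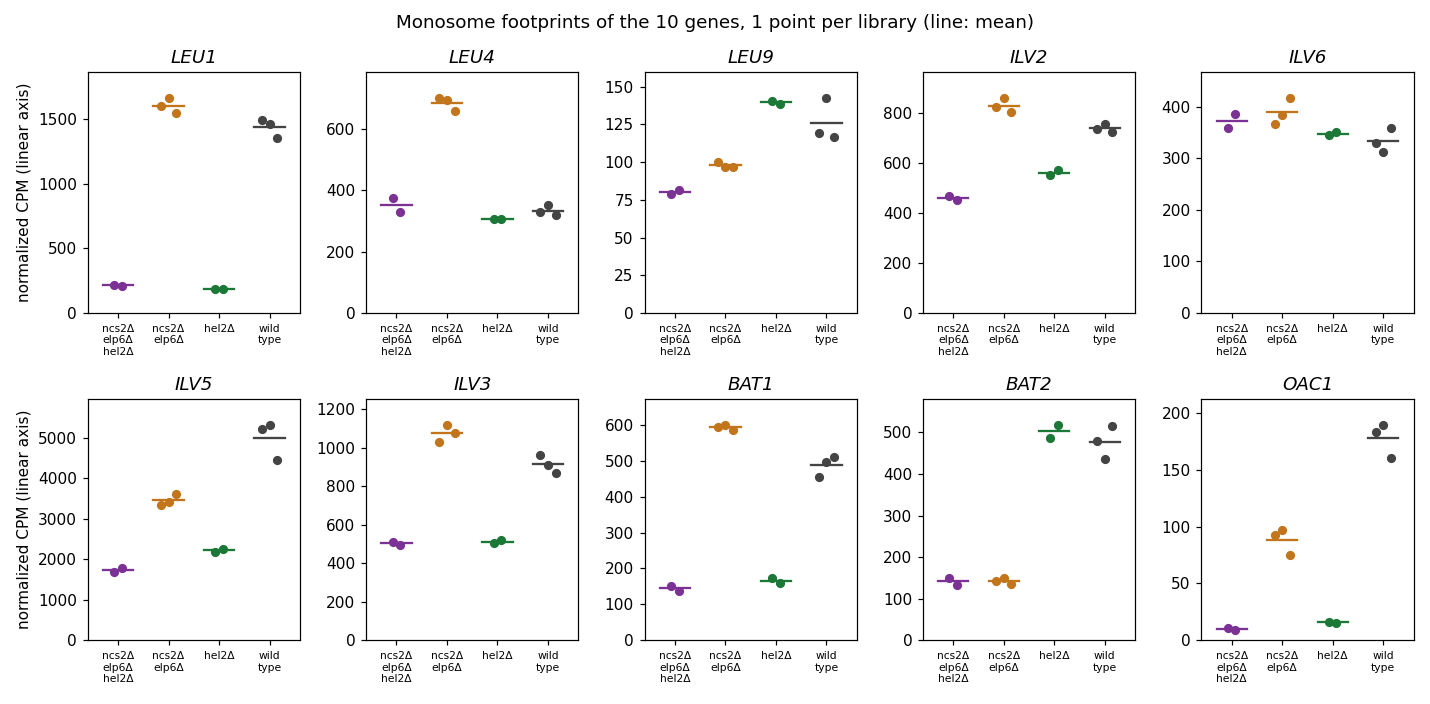
Monosome level of each gene in normalized CPM (linear axis from 0, a separate scale for each gene), with 1 point per library, a line at the mean, and strains from left to right ncs2Δelp6Δhel2Δ, ncs2Δelp6Δ, hel2Δ and wild type. LEU1 lies at 185 to 217 in both strains without HEL2 and at 1349 to 1663 in both strains with it, while BAT2 lies at 133 to 150 in both strains without NCS2 and ELP6 and at 436 to 518 in the others.

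The same change of HEL2 was described in cells that also lacked NCS2 and ELP6, by setting the triple deletion beside ncs2Δelp6Δ. LEU1 had 217 and 212 normalized CPM in the triple deletion, against 1598, 1663 and 1543 in ncs2Δelp6Δ, a log2 change of −2.89 ± 0.08. OAC1 had 10.9 and 9.37 normalized CPM in the triple deletion, from 30 and 46 counts, against 92.4, 97.2 and 75.1 in ncs2Δelp6Δ, a log2 change of −3.14 ± 0.17. These genes ranked 4 and 3 from the lowest of 5318 genes. BAT1 ranked 8, with 151 and 138 normalized CPM in the triple deletion, against 593, 599.6 and 586 in ncs2Δelp6Δ (log2 change −2.03 ± 0.08).

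For LEU4 the decrease in this pair of strains was numerically larger than in hel2Δ against wild type. It had 373.5 and 329 normalized CPM in the triple deletion, against 702, 695 and 659 in ncs2Δelp6Δ, a log2 change of −0.96 ± 0.08, where the hel2Δ value was −0.11 ± 0.07. ILV2 changed by −0.84 ± 0.08 here and by −0.38 ± 0.07 in hel2Δ. For ILV3 the values were −1.09 and −0.82, and for ILV5 −0.99 and −1.16. BAT2 (−0.02 ± 0.09) and ILV6 (−0.06 ± 0.08) differed by less than their errors in the triple deletion. The median of the 10 members was −0.98 and that of the 6 Leu3 targets −1.51, against 0.00 for all genes. In 8 members every triple deletion library was below every ncs2Δelp6Δ library, as was the case for 28.1% of all genes, and in 0 members the reverse held, as for 27.2% of genes. Whether the 2 backgrounds differ was not tested.

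**Figure D2:**
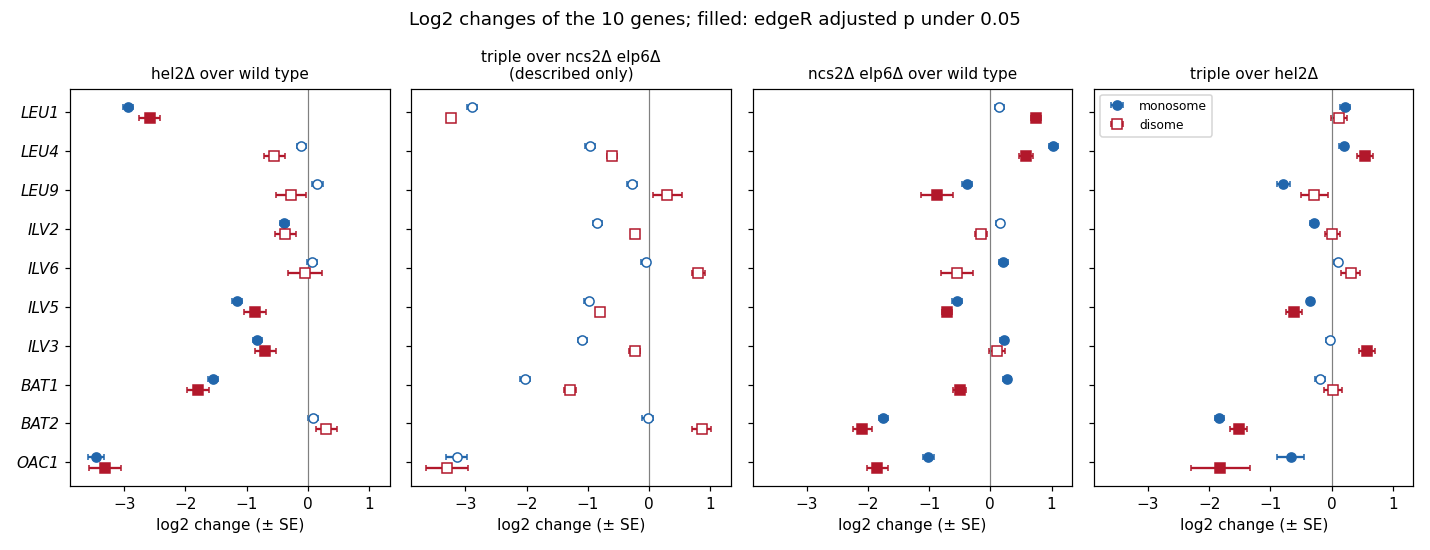
Log2 change with its SE for each gene in monosome (circles) and disome (squares) counts, with 1 panel per comparison; filled symbols passed an edgeR adjusted p under 0.05, and in the second panel nothing was tested. LEU1 and OAC1 stand between −3.46 and −2.58 in both panels that compare strains without and with HEL2, and BAT2 stands between −2.09 and −1.52 in both panels that compare strains without and with NCS2 and ELP6.

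Strains without and with NCS2 and ELP6, which also differed at MET17 and in the HIS3MX and URA3 markers, were compared as ncs2Δelp6Δ against wild type. In monosome counts 4 members were higher and 4 lower, in a comparison where 26.6% of 5281 genes were called higher and 26.4% lower (53% in all), so the members changed in both directions. Libraries did not overlap for 6 members that were higher and 4 that were lower, as for 31.5% and 28.4% of all genes. Their median log2 change was 0.15, against 0.02 for all genes. The Leu3 targets split as well, with 2 higher and 2 lower of 6.

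BAT2 showed the largest change. It had 143, 150.2 and 136 normalized CPM in ncs2Δelp6Δ, against 479, 436 and 516 in wild type, a log2 change of −1.75 ± 0.08 (edgeR adjusted p = 8.38e-11). Its mitochondrial counterpart BAT1 was slightly higher, with 593, 599.6 and 586 normalized CPM in ncs2Δelp6Δ, against 454, 496 and 510.2 in wild type (log2 change 0.27 ± 0.07, edgeR adjusted p = 0.00384). The libraries of the strains did not overlap for either gene. LEU4 had 702, 695 and 659 normalized CPM in ncs2Δelp6Δ, against 329, 352 and 319 in wild type, a log2 change of 1.03 ± 0.07 (edgeR adjusted p = 8.29e-09). Its paralog LEU9 was lower, at 100.3, 96.6 and 96.5 normalized CPM in ncs2Δelp6Δ, against 119, 143 and 117 in wild type (log2 change −0.38 ± 0.08, edgeR adjusted p = 0.00115). All ncs2Δelp6Δ libraries thus lay above wild type for LEU4 and below it for LEU9.

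OAC1 was lower in ncs2Δelp6Δ too, with 92.4, 97.2 and 75.1 normalized CPM, against 183, 189 and 159.9 in wild type (log2 change −1.01 ± 0.10, edgeR adjusted p = 5.84e-07). ILV5 had 3342, 3411 and 3613 normalized CPM in ncs2Δelp6Δ, against 5207, 5318 and 4463 in wild type, a log2 change of −0.54 ± 0.08 (edgeR adjusted p = 3.32e-05). ILV3 and ILV6 rose by 0.22 and 0.21 on the log2 scale (edgeR adjusted p = 0.0146 and 0.0305). LEU1 (0.15, edgeR adjusted p = 0.0906) and ILV2 (0.16, edgeR adjusted p = 0.0597) did not pass. Several of the small changes lay near the threshold. With 1 library left out, the log2 change stayed between 0.19 and 0.26 for ILV3, between 0.16 and 0.27 for ILV6 and between 0.13 and 0.18 for ILV2, but some calls changed. The ILV3 call was lost without wild-type library 2 (edgeR adjusted p = 0.0547) or ncs2Δelp6Δ library 2 (0.0659), and the ILV6 call without wild-type library 1 or 2 (0.0716 and 0.151) or ncs2Δelp6Δ library 2 or 3 (0.0638 and 0.121), while ILV2 passed without ncs2Δelp6Δ library 3 (0.0443).

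Among strains that lacked HEL2, the corresponding comparison was the triple deletion against hel2Δ. Here 2 members were higher and 5 lower, beside 22.5% of 5027 genes higher and 21.7% lower (44.2% in all). Libraries did not overlap for 3 members that were higher and 6 that were lower, as for 35% and 35.4% of all genes. The members' median was −0.24, against 0.00 for all genes. BAT2 had 149.5 and 133 normalized CPM in the triple deletion, against 488 and 518 in hel2Δ, a log2 change of −1.84 ± 0.08 (edgeR adjusted p = 7.52e-28). The levels in the triple deletion lay close to those of ncs2Δelp6Δ, and those in hel2Δ close to wild type.

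LEU9 fell by 0.79 on the log2 scale (± 0.10, edgeR adjusted p = 1.77e-09), with 79.1 and 81.3 normalized CPM in the triple deletion, against 141 and 138 in hel2Δ. ILV5 fell by 0.35 ± 0.06 (edgeR adjusted p = 2.89e-06), with 1685 and 1785 normalized CPM in the triple deletion, against 2188 and 2248 in hel2Δ. LEU4 reached only 373.5 and 329 normalized CPM in the triple deletion, against 308 and 306 in hel2Δ (log2 change 0.19, edgeR adjusted p = 0.028), where the change with HEL2 present was 1.03. The difference between these LEU4 changes was not tested. Without triple deletion library 1 the LEU4 change was 0.10, and without library 2 it was 0.30. LEU1 had 217 and 212 normalized CPM in the triple deletion, against 187 and 185 in hel2Δ (log2 change 0.21, edgeR adjusted p = 0.029). OAC1 and ILV2 fell by 0.67 and 0.28 (edgeR adjusted p = 0.0126 and 0.000358). Finally, ILV3 (−0.02), ILV6 (0.10) and BAT1 (−0.19) did not pass.

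Only LEU9, ILV5 and BAT2 were called under every alternative in that comparison. With DESeq2 the adjusted p was 0.221 for LEU1, 0.209 for LEU4 and 0.254 for OAC1. Without hel2Δ monosome library 1 or 2 the edgeR adjusted p was 0.191 or 0.235 for LEU1, 0.193 or 0.227 for LEU4 and 0.0761 or 0.0664 for OAC1, and without library 2 it was 0.0654 for ILV2. Without triple deletion library 1 it was 0.179 for LEU4, 0.0345 for ILV6 and 0.0055 for BAT1 (0.0412 at equal depth), and without library 2 it was 0.152 for OAC1.

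Disome footprints were then compared in the same strains. In hel2Δ against wild type, edgeR called few genes in disome counts, with 0.508% of 4531 lower and 0.331% higher (0.839% in all). Of the 10 members, 5 were called lower and 0 higher. Replicate disome libraries of both strains varied beyond counting noise. Genes that were not called are therefore not shown to be unchanged, and the share called is not the share that changed. Libraries did not overlap for 8 members that were lower and 1 that was higher, as for 20.6% and 21.6% of all genes. LEU1 had 323 and 296 normalized CPM of disomes in hel2Δ, against 1835 and 1891 in wild type, a log2 change of −2.58 ± 0.17 (edgeR adjusted p = 1.52e-13). OAC1 had 19.6 and 18.2 normalized CPM in hel2Δ, from 20 and 41 counts, against 197 and 179.5 in wild type, a log2 change of −3.31 ± 0.26 (edgeR adjusted p = 7.39e-12). These were the genes ranked 3 and 2 from the lowest.

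BAT1 had 176 and 179 normalized CPM of disomes in hel2Δ, against 609 and 633 in wild type, a log2 change of −1.79 ± 0.17 (edgeR adjusted p = 2.35e-09), and ranked 7. ILV5 fell by 0.87 ± 0.18 (edgeR adjusted p = 0.0056) and ILV3 by 0.69 ± 0.17 (edgeR adjusted p = 0.0371). LEU4 (−0.54), LEU9 (−0.28), ILV2 (−0.36), ILV6 (−0.05) and BAT2 (0.31) did not pass. The calls of LEU1, BAT1 and OAC1 held under every alternative. ILV5 was lost without wild-type disome library 2 (edgeR adjusted p = 0.116) or hel2Δ library 1 (0.288), and ILV3 without wild-type library 2 (0.0593) or hel2Δ library 1 or 2 (0.815 and 0.309).

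In the triple deletion beside ncs2Δelp6Δ, described only, LEU1 had 331 and 340.5 normalized CPM of disomes, against 3141 and 3211 in ncs2Δelp6Δ, a log2 change of −3.23 ± 0.06. OAC1 had 7.0 and 3.64 normalized CPM in the triple deletion, from 9 and 5 counts, against 52.4 and 54.0 in ncs2Δelp6Δ (log2 change −3.30 ± 0.34). With so few counts the OAC1 value is imprecise. BAT1 (−1.30), ILV5 (−0.80) and LEU4 (−0.61) were also lower, whereas BAT2 (0.86 ± 0.15) and ILV6 (0.81 ± 0.11) were higher, in contrast to their monosome values near 0. The members' median was −0.42, against 0.01 for all genes. The libraries of 6 members were all lower in the triple deletion, as were those of 30.9% of 4342 genes, and those of 2 members all higher, as were those of 30.6% of genes.

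**Figure D3:**
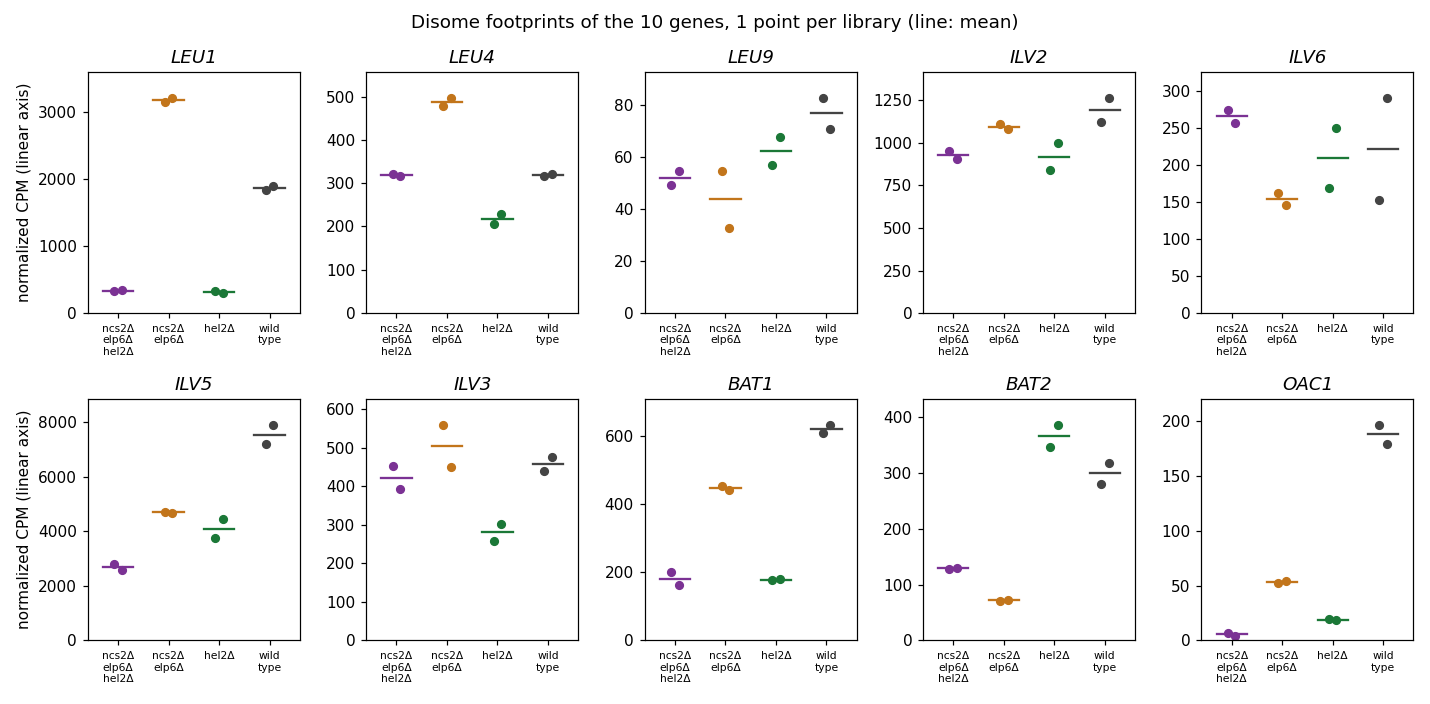
Disome level of each gene in normalized CPM (linear axis from 0, a separate scale for each gene), with 1 point per library, a line at the mean, and strains from left to right ncs2Δelp6Δhel2Δ, ncs2Δelp6Δ, hel2Δ and wild type. LEU1 lies at 3141 and 3211 in ncs2Δelp6Δ, above 1835 and 1891 in wild type, and between 296 and 340.5 in the strains without HEL2, and the wild-type libraries are far apart for ILV6 (152 and 290.3).

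Without NCS2 and ELP6, disome counts of LEU1 were higher and those of OAC1 lower than in wild type. In ncs2Δelp6Δ against wild type, 2 members were higher and 5 lower, beside 12.8% of 4405 genes higher and 15.2% lower (28.1% in all). Libraries did not overlap for 2 members that were higher and 6 that were lower, as for 34% and 31.1% of all genes. LEU1 rose by 0.74 on the log2 scale (± 0.08, edgeR adjusted p = 0.000159), on the library values given above, and LEU4 rose by 0.59 ± 0.11 (edgeR adjusted p = 0.0045). BAT2 had 70.9 and 72.0 normalized CPM of disomes in ncs2Δelp6Δ, against 281 and 318 in wild type (log2 change −2.09 ± 0.16, edgeR adjusted p = 1.99e-05). OAC1 fell by 1.85 ± 0.18 (edgeR adjusted p = 8.08e-05), with 48 and 66 counts in ncs2Δelp6Δ and 302 and 256 in wild type.

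ILV5 fell by 0.71 (edgeR adjusted p = 0.000172), LEU9 by 0.87 (0.0342) and BAT1 by 0.50 (0.00671), although BAT1 was higher in monosomes. The calls of LEU1, ILV5, BAT2 and OAC1 held under every alternative. LEU9 had 50 and 40 disome counts in ncs2Δelp6Δ, and its log2 change was −0.51 without ncs2Δelp6Δ library 2 and reached −1.24 with another library left out. Without ncs2Δelp6Δ disome library 1 or 2, the edgeR adjusted p was 0.0818 or 0.14 for LEU4, and 0.154 or 0.207 for BAT1, and for LEU9 it was 0.418 without library 2, 0.053 at equal depth and 0.101 with DESeq2. Without wild-type disome library 1, ILV2 (−0.22) and ILV6 (−0.94) passed as lower.

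In the triple deletion against hel2Δ, disome counts of 2 members were higher and 3 lower, beside 13.1% of 4361 genes higher and 13% lower (26% in either direction). Libraries did not overlap for 4 members in each direction, as for 32.5% of all genes that were higher and 29.3% that were lower. LEU4 had 320 and 316 normalized CPM of disomes in the triple deletion, against 206 and 228 in hel2Δ (log2 change 0.54 ± 0.13, edgeR adjusted p = 0.00279). ILV3 had 453 and 392 normalized CPM in the triple deletion, against 257.5 and 302 in hel2Δ (log2 change 0.58 ± 0.13, edgeR adjusted p = 0.00168). BAT2 fell by 1.52 ± 0.14 (edgeR adjusted p = 6.13e-09), OAC1 by 1.82 ± 0.48 (edgeR adjusted p = 0.00586) and ILV5 by 0.62 ± 0.13 (edgeR adjusted p = 0.0011). LEU1, at 331 and 340.5 normalized CPM in the triple deletion, against 323 and 296 in hel2Δ, did not pass (log2 change 0.12, edgeR adjusted p = 0.53), whereas with HEL2 present it had risen. Only LEU4 and BAT2 were called under every alternative. Without triple deletion disome library 1 the edgeR adjusted p was 0.0858 for ILV3 and 0.0823 for ILV5, without library 2 it was 0.188 for ILV5 and 0.103 for OAC1, and without hel2Δ disome library 2 ILV6 passed (0.003).

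To separate disome from monosome changes, the ratio of disome to monosome level was followed for each member. Its zero point depends on the scaling of each footprint type, so only differences between genes or strains are read. In wild type, the ratio ranked genes within 3695 that had at least 40 disome counts: ILV2 ranked 559 from the highest, ILV5 657, LEU1 946 and BAT1 986. OAC1 and LEU4 stood nearer the middle, at 1437 and 1713. ILV6, BAT2 and LEU9 ranked 2800, 2816 and 2873, and ILV3 ranked 3220, although its enzyme acts directly after that of ILV5.

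The interaction of footprint type and strain tested whether disomes changed more or less than monosomes. In hel2Δ against wild type it called 0 members, beside 5.13% of 5011 genes (2.39% higher and 2.73% lower). Unadjusted, 3 members had p under 0.05 in edgeR (LEU1, LEU4 and LEU9), and DESeq2 called 0. The interaction estimates were 0.33 ± 0.15 for LEU1 and 0.12 ± 0.25 for OAC1, much smaller than the decreases of both footprint types.

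In ncs2Δelp6Δ against wild type the interaction called 1 member higher and 3 lower, beside 9.98% of 5400 genes higher and 8.65% lower (18.6% in either direction). LEU1 gained disomes relative to monosomes. Its log2 ratio lay between 0.92 and 1.06 in ncs2Δelp6Δ over all pairings of libraries, against 0.30 to 0.49 in wild type (interaction 0.64 ± 0.11, edgeR adjusted p = 0.000559). BAT1 lost disomes relative to monosomes, with a log2 ratio of −0.44 to −0.37 in ncs2Δelp6Δ, against 0.25 to 0.48 in wild type (interaction −0.72 ± 0.12, edgeR adjusted p = 0.000487). For neither gene did the ranges overlap.

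The ratio was also lower in ncs2Δelp6Δ for OAC1 (interaction −0.78 ± 0.20, edgeR adjusted p = 0.012) and LEU4 (interaction −0.39 ± 0.12, edgeR adjusted p = 0.0315). For LEU4 this was a smaller rise of disomes (0.59) than of monosomes (1.03), and for OAC1 a larger decrease of disomes (−1.85) than of monosomes (−1.01). In all, 9 of 10 interaction estimates were negative, with a median of −0.34, against 0.00 for all genes. Negative estimates were not particular to the members. They were found in 5 of 7 lysine, 6 of 8 arginine and 5 of 6 histidine genes (medians −0.23, −0.43 and −0.37). The LEU1 and BAT1 calls held under every alternative. The OAC1 call was lost without ncs2Δelp6Δ disome library 1 or 2 (edgeR adjusted p = 0.0682 and 0.0746). The LEU4 call was lost without those libraries (0.133 and 0.0816), ncs2Δelp6Δ monosome library 1 or 2 (0.0729 and 0.0661) or wild-type monosome library 1 (0.0583), and at equal depth (0.0737). DESeq2 called 6 members, with ILV2 (adjusted p = 0.0288) and ILV6 (adjusted p = 0.0495) added, and edgeR called ILV6 at equal depth (adjusted p = 0.0479). Without wild-type disome library 1, edgeR also called ILV2 (−0.39) and ILV6 (−1.16).

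In the triple deletion against hel2Δ the interaction called 1 member, beside 9.02% of 5034 genes (4.55% higher and 4.47% lower). ILV3 had a log2 ratio of −0.39 to −0.12 in the triple deletion, against −1.01 to −0.74 in hel2Δ (interaction 0.61 ± 0.16, edgeR adjusted p = 0.0187). This call was lost at equal depth (0.0604), without hel2Δ monosome library 1 or 2 (0.0812 and 0.11), without triple deletion monosome library 2 (0.0807) and without triple deletion disome library 1 (0.106). Without hel2Δ disome library 2, ILV2 (0.43) and ILV6 (0.56) passed, and without library 1 ILV5 (−0.39) did. Between the triple deletion and ncs2Δelp6Δ the estimates, described only, were positive for 8 members with a median of 0.57, against −0.002 for all genes. The exceptions were LEU1 (−0.36 ± 0.11) and OAC1 (−0.21 ± 0.47). Positive estimates were not particular to the members. They were found in 7 of 7 lysine, 7 of 8 arginine and 5 of 6 histidine genes (medians 0.58, 0.42 and 0.28).

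**Figure D4:**
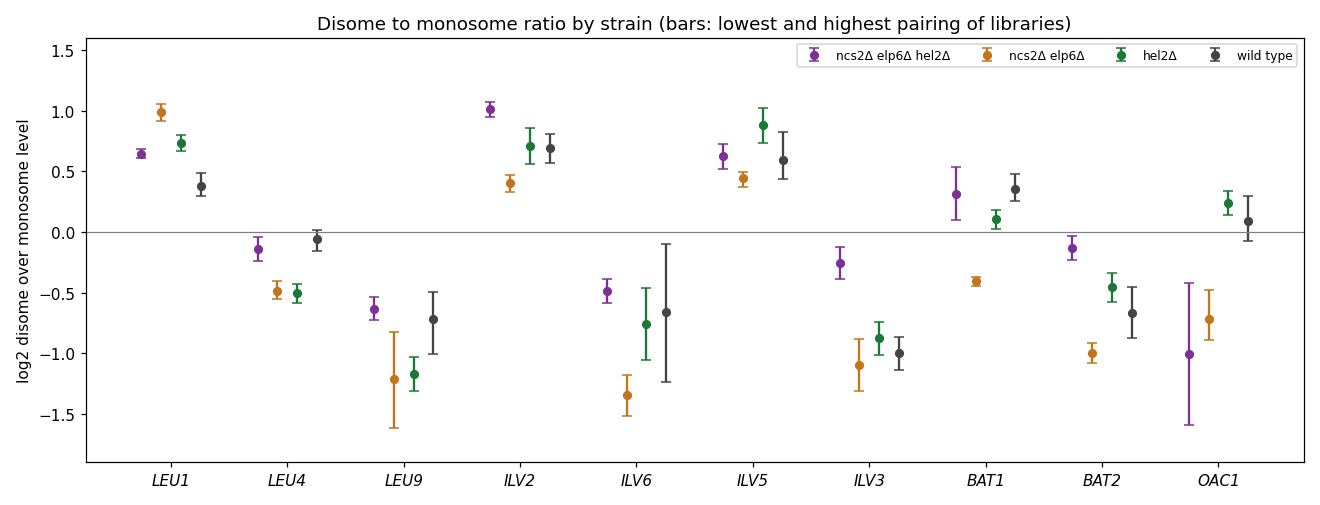
Log2 ratio of disome over monosome level for each gene, with points at the mean and bars from the lowest to the highest pairing of disome and monosome libraries (4 pairings in ncs2Δelp6Δhel2Δ and hel2Δ, 6 in ncs2Δelp6Δ and wild type). Strains stand from left to right as ncs2Δelp6Δhel2Δ, ncs2Δelp6Δ, hel2Δ and wild type, coloured as in the legend. By the mean, LEU1 is highest in ncs2Δelp6Δ (0.99), while BAT1 and ILV6 are lowest there (−0.41 and −1.34). The means of LEU9, ILV2, ILV3, ILV5 and BAT2 are lowest there too, that of LEU4 is lowest in hel2Δ and that of OAC1 in ncs2Δelp6Δhel2Δ.

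Of 12 related genes (the isoleucine entry enzyme, regulators, nitrogen and pyruvate supply, transport and breakdown of branched-chain amino acids), 6 were lower and 3 higher in monosomes of hel2Δ against wild type, beside 17.2% and 14.7% of all genes. GDH1, the NADP-dependent glutamate dehydrogenase that supplies the amino group, averaged 200.1 ± 3.45 normalized CPM in hel2Δ (SD, n = 2) and 599 ± 43.1 in wild type (SD, n = 3), a log2 change of −1.57 ± 0.08 (edgeR adjusted p = 8.35e-10). BAP2, a branched-chain amino acid permease, fell by 0.89 (edgeR adjusted p = 8.77e-07). The permease gene TAT1, the malic enzyme gene MAE1, MMF1 and the pyruvate decarboxylase gene PDC5 were also lower, by 0.61, 0.46, 0.34 and 1.15. LEU3, which encodes the activator, did not pass the test and averaged 24.8 ± 2.69 normalized CPM in hel2Δ and 22.0 ± 1.75 in wild type (log2 change 0.19, edgeR adjusted p = 0.359). GCN4 rose and averaged 61.6 ± 9.14 in hel2Δ and 28.5 ± 4.26 in wild type (log2 change 1.14, edgeR adjusted p = 2.15e-05). ILV1, threonine deaminase, rose by 0.21 and ARO10, a keto acid decarboxylase, by 0.80. In the triple deletion beside ncs2Δelp6Δ, GDH1 had a log2 change of −1.58 ± 0.08, BAP2 of −0.50, LEU3 of 0.24 and GCN4 of 0.34.

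Loss of NCS2 and ELP6 went with a higher GCN4 level in both backgrounds, with log2 changes of 2.22 in ncs2Δelp6Δ against wild type (± 0.10, edgeR adjusted p = 5.71e-11) and 1.44 in the triple deletion against hel2Δ (± 0.10, edgeR adjusted p = 1.21e-17). Of the 12 related genes, 3 rose and 4 fell in ncs2Δelp6Δ against wild type, and 4 rose and 4 fell in the triple deletion against hel2Δ. Of all genes, 53% were called in the first of these comparisons and 44.2% in the second.

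Other amino acid pathways showed a different picture in hel2Δ against wild type. Of 8 arginine synthesis genes, 7 were higher and 0 lower, with a median log2 change of 0.88, beside 14.7% of all genes higher and 17.2% lower. Of 6 histidine genes, 4 were higher and 1 lower (median 0.46), and of 7 lysine genes 0 were higher and 1 lower (median −0.04). The median of −0.60 in the leucine and branched-chain genes was the lowest of these 4. In ncs2Δelp6Δ against wild type, 6 of 7 lysine and 6 of 8 arginine genes were higher (medians 0.90 and 0.71), beside 26.6% of all genes. Of 6 histidine genes 2 were higher and 0 lower (median 0.09), and of the 10 leucine and branched-chain genes 4 were higher and 4 lower (median 0.15). These strains also differed in the HIS3MX marker. In the triple deletion against hel2Δ, 6 of 7 lysine genes were higher (median 0.94) and 4 of 8 arginine genes were (median 0.32). Of 6 histidine genes, 2 were higher and 1 lower (median −0.02). Of the 10 members 2 were higher and 5 lower (median −0.24), beside 22.5% of all genes higher and 21.7% lower. Only the members' share that was higher was thus near that of all genes.

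**Figure D5:**
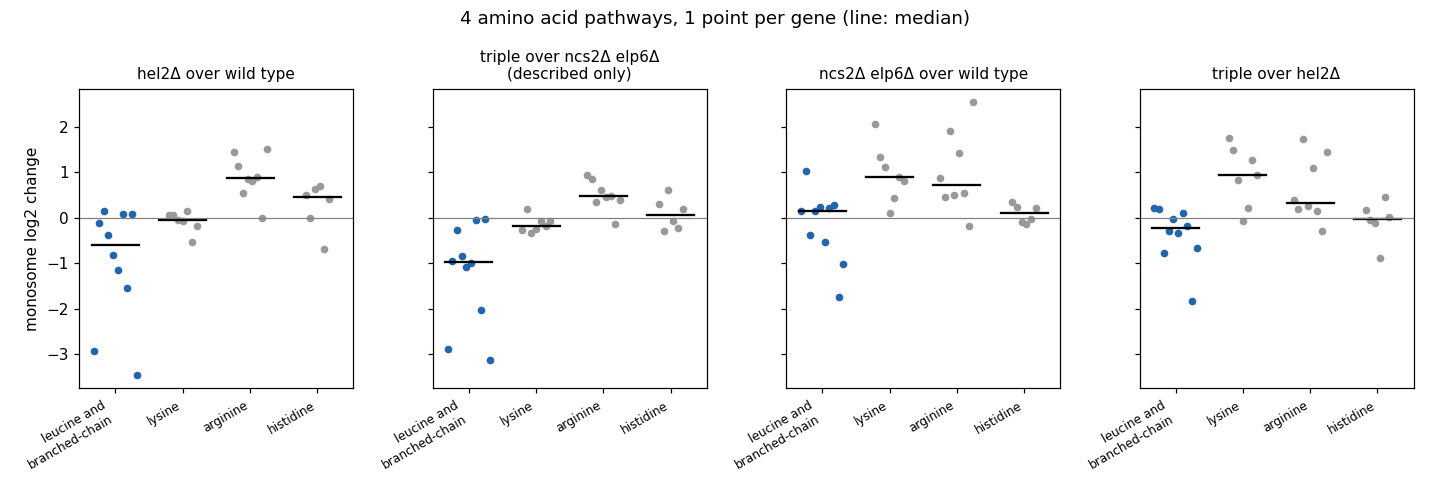
Monosome log2 change of each gene in 4 amino acid synthesis pathways, with a line at the median and 1 panel per comparison; the second panel was described only. In hel2Δ against wild type the leucine and branched-chain median is −0.60, beside medians of −0.04, 0.88 and 0.46 for lysine, arginine and histidine.

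The pattern of LEU1 over the 10 monosome libraries was finally set beside that of every other gene, by Pearson's correlation of log2 CPM. Libraries of 1 strain are alike and depth ran with HEL2, so these values are descriptions. Outside the lists used here, DIC1 (YLR348C), the mitochondrial dicarboxylate carrier, had the highest correlation of 5353 genes (r = 0.993), followed by FAP7 (0.965), ACB1 (0.962), YER034W (0.962) and GSP1 (0.955). DIC1 averaged 14.4 ± 1.26 normalized CPM in the triple deletion, 76.7 ± 6.36 in ncs2Δelp6Δ, 14.7 ± 1.16 in hel2Δ and 80.4 ± 11.8 in wild type. With TMM-normalized levels DIC1 kept the highest place (r = 0.992), but the other 4 fell to places 16 to 84. Among the members, BAT1 (0.981), ILV3 (0.938), OAC1 (0.934), ILV5 (0.902) and ILV2 (0.817) were most like LEU1, followed by LEU4 (0.431), and LEU9 (−0.37), ILV6 (−0.31) and BAT2 (−0.28) were least like it. With TMM-normalized levels LEU9 (0.054) and ILV6 (0.034) turned positive, and BAT2 stood at −0.079.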

How the data were processed

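Per the labels and the study's methods, footprints from monosome and disome fractions were trimmed, cleared of non-coding RNA with STAR 2.5.3a, mapped with Bowtie 1.2.3 and counted by the authors as uniquely mapped reads per open reading frame (build sacCer3). The deposited values are raw counts per gene, 6085 genes in 10 monosome and 5767 in 8 disome libraries. Here, strains were compared with edgeR 4.0.16 (limma 3.58.1, R 4.3.3) by the quasi-likelihood test on TMM-scaled counts after filterByExpr, with Benjamini-Hochberg adjustment over all genes tested and a threshold of 0.05. Each fit held only the strains compared, and disome enrichment was the interaction of footprint type and strain. DESeq2 1.42.0 was an alternative. The code was checked on simulated counts. The SE is the log2 change over the root of its F statistic. Gene positions come from RefSeq's R64 table, the assembly that sacCer3 names. All 10 members were named by rule, beside lists of related genes. The members and lists were chosen with earlier results of these data known. The labels number replicates without saying that they are separate cultures, while the paper's captions call those of the disomes and of wild-type and ncs2Δelp6Δ monosomes biological replicates. The p-values test differences against the spread between these libraries, and the spread of each gene is moderated by that of all genes. mRNA libraries were not analysed here.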

Additional observations from a re-analysis of the deposited data

Results flagged for a closer look

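For several members the same genetic change moved every library one way in 1 background and the opposite way in the other. The difference between the backgrounds was not tested in any of these cases. How many of all genes reversed in this way was not computed, so the cases are not read as particular to these members. Separation in a single comparison was common. In monosomes, all ncs2Δelp6Δ libraries lay above wild type for 31.5% of all genes, and all triple deletion libraries lay below hel2Δ for 35.4%. In monosome levels, the log2 difference between means for loss of NCS2 and ELP6 was 0.29 for BAT1 in ncs2Δelp6Δ against wild type and −0.19 in the triple deletion against hel2Δ. For ILV2 the corresponding values were 0.17 and −0.29. Of these 4 monosome changes, edgeR called that of BAT1 in ncs2Δelp6Δ (adjusted p = 0.00384) and that of ILV2 in the triple deletion (adjusted p = 0.000358), but not the other 2 (adjusted p = 0.0768 for BAT1 and 0.0597 for ILV2). The remaining cases concern the ratio of disome to monosome level over all pairings of libraries.

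For loss of NCS2 and ELP6, the log2 ratio of LEU4 differed by −0.43 between ncs2Δelp6Δ and wild type and by 0.36 between the triple deletion and hel2Δ. For ILV2 these values were −0.29 and 0.30, and for BAT2 they were −0.33 and 0.32. For loss of HEL2, the log2 ratio of LEU1 differed by 0.36 between hel2Δ and wild type and by −0.34 between the triple deletion and ncs2Δelp6Δ. LEU4 showed −0.44 and 0.35, LEU9 −0.46 and 0.58, and BAT1 −0.25 and 0.72 in the same pairs of strains. In the interaction of footprint type and strain, edgeR called only LEU4 in ncs2Δelp6Δ against wild type (adjusted p = 0.0315) among the ratios given here for tested comparisons, and the triple deletion against ncs2Δelp6Δ was described only.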

How the results depend on the processing

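Of 987 values of single members under an alternative setting in the tested comparisons, 896 kept their direction and their side of the threshold, 49 lost and 16 gained a call, and 26 changed sign. The 6 decreases in hel2Δ against wild type monosomes were called in every alternative. In the triple deletion against hel2Δ, the 7 monosome calls became 4 with DESeq2 and 3 to 8 with 1 library left out, and the single interaction call became 0 at equal depth and 0 to 3 with 1 library left out. With 1 library left out, disome calls ranged from 3 to 5 in hel2Δ against wild type (main value 5), from 4 to 9 in ncs2Δelp6Δ against wild type (7) and from 3 to 6 in the triple deletion against hel2Δ (5), and interaction calls from 2 to 6 in ncs2Δelp6Δ against wild type (4). A library left alone in its strain was assumed to vary like the other strain. Calls over all genes moved too. With 1 library left out they ranged from 1431 to 2333 in monosomes of the triple deletion against hel2Δ (2220 with all libraries, 1246 with DESeq2), and in disomes from 9 to 122 in hel2Δ against wild type (38), from 409 to 1944 in ncs2Δelp6Δ against wild type (1236) and from 627 to 1205 in the triple deletion against hel2Δ (1136). Interaction calls over all genes ranged from 494 to 1079 in ncs2Δelp6Δ against wild type (1006) and from 174 to 833 in the triple deletion against hel2Δ (454, and 358 at equal depth). The cause of these shifts was not tested.

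Deviations of same-numbered libraries correlated between −0.17 and 0.10. The lowest came from library 1 in monosomes of ncs2Δelp6Δ against wild type, and the highest from disomes of hel2Δ against wild type with only 2 pairs. The replicate number was therefore not taken as a pairing. With it as a replicate block, member calls numbered 7, 8 and 5 in monosomes of hel2Δ against wild type, ncs2Δelp6Δ against wild type and the triple deletion against hel2Δ, 5, 7 and 5 in disomes and 0, 4 and 1 for the interaction. In these monosome comparisons the block called 2320, 2658 and 1921 genes, against 1666, 2797 and 2220 without it. BAT2 was gained in hel2Δ against wild type (0.16, adjusted p = 0.0195), and LEU1 and LEU4 were lost in the triple deletion against hel2Δ (adjusted p = 0.062 and 0.0706). In hel2Δ against wild type, replicate 3 existed only among wild-type monosomes, so the block took that library out of the strain difference. Leaving that library out without a block called 2199 genes in monosomes.

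All 26 sign changes concerned values that had passed no test. In disomes of the triple deletion against hel2Δ, ILV2 gave −0.020 with RLE scaling and −0.012 with DESeq2, and −0.13 to 0.13 with 1 library left out. BAT1 gave −0.0047 with RLE scaling and −0.13 to 0.17. ILV3 ranged from −0.032 to 0.27 in disomes of ncs2Δelp6Δ against wild type and from −0.054 to 0.012 in monosomes of the triple deletion against hel2Δ. ILV6 ranged from −0.43 to 0.48 in disomes of hel2Δ against wild type. For the interaction in hel2Δ against wild type, ILV2 gave 0.016 with RLE scaling, 0.0091 without the filter, 0.0018 with the replicate block, 0.020 with DESeq2, 0.018 at equal depth and −0.15 to 0.14 with 1 library left out, while ILV3 ranged from −0.033 to 0.25 and ILV6 from −0.53 to 0.41. The interaction of ILV3 in ncs2Δelp6Δ against wild type ranged from −0.21 to 0.080 and that of ILV6 in the triple deletion against hel2Δ from −0.031 to 0.56. DESeq2 gave no adjusted p for OAC1 disomes in the triple deletion against hel2Δ, where counts of 5 and 9 limit the precision. Sequence features of the members were not run.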
